A study of Mus musculus with 6 samples.

Results

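The hypoxia-inducible factor (HIF) pathway was followed through 32 genes, which are the genes of the HIF alpha subunits, their oxygen-sensing regulators and a set of HIF targets outside the glycolytic enzymes. They were chosen by symbol from a list, and all 32 were found among the 55416 genes of the count table and passed the filter on low counts. The cells were primary keratinocytes from the skin of pups aged 1 to 2 days on a C57BL/6J:129 hybrid background, either wild type or knockout for C/EBPβ, the transcription factor encoded by Cebpb. Both groups were grown in serum-free medium with epidermal growth factor, pituitary extract and 0.05 mM calcium, and from day 5 after plating both were irradiated with UVB (312 nm lamp, dose 10 mJ/cm2), with RNA collected after 8 h. Each genotype had 3 libraries, numbered 1, 2 and 3 in wild type and 4, 5 and 6 in knockout. No library lacked UVB, so the values compare genotypes after UVB and do not measure the response to UVB.

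HIF is a dimer of an oxygen-regulated alpha subunit and a stable beta subunit. When oxygen is present, prolyl hydroxylases of the EGLN family modify the alpha subunit, the VHL ubiquitin ligase then marks it for destruction, and the asparaginyl hydroxylase encoded by Hif1an blocks its transactivation domain. When oxygen is short the alpha subunit accumulates and binds the core motifs ACGTG or GCGTG near its targets, which raise oxygen delivery, lower mitochondrial oxygen use, hydroxylate collagen and manage pH. The epidermis has no vessels of its own and is mildly hypoxic, and HIF is active in it. Much of this control acts on protein stability, which RNA counts do not measure.

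Total counts ran from 107757415 to 122797031 in wild type and from 81256192 to 92987497 in knockout libraries, so that 3 counts equal 0.0349 CPM or less. CPM is a gene's count scaled to the effective size of its library. Cebpb itself had 145 ± 21.9 CPM in wild type and was down to 0.942 ± 0.143 CPM after knockout (SD, n = 3 each). Separate animals or cultures within a genotype are not named in the labels, and p-values therefore rest on a spread between libraries that may be technical. All 7 keratinocyte markers examined were present, at a summed 38008 to 43030 CPM in wild type and 22069 to 23227 CPM in knockout. By the test given below 6 were called lower and 1 higher, against 23.7% and 24.8% of all genes tested. The 5 melanocyte markers summed to 676 to 766 and 595 to 674 CPM, 3 of them lower in knockout, and the summed fibroblast (4.77 to 6.31 and 4.01 to 4.44 CPM), immune (0.852 to 1.69 and 0.357 to 0.477 CPM) and endothelial markers (0.249 to 0.385 and 0.189 to 0.232 CPM) were low, with Lum, Cd3e, Cdh5 and Emcn at 0 in all libraries. Y-linked transcripts summed to 60.7 to 68.1 CPM in wild type and 0.101 to 0.158 CPM in knockout libraries, with Xist at 387 to 415 and 567 to 604 CPM. The Y-linked values separated the genotypes in every library. Effects of the sex of the cells therefore cannot be told apart from those of the knockout. The part of the marker differences in the results given here was not tested. In such bulk RNA, fewer cells of a type and less RNA per cell cannot be told apart.

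Most of the 32 genes were lower in knockout cells, but they did not move as a block. In edgeR's quasi-likelihood test, with p adjusted by Benjamini-Hochberg over all 17659 genes tested, 19 were called lower, 6 higher and 7 were not called at an adjusted p of 0.05. Over all genes tested, 23.7% were called lower, 24.8% higher and 48.6% in either direction. A fall of at least 1 log2 unit was called in 11 members, against 5.94% of all genes, and a rise of that size in 4, against 8.56%. The median log2 fold change (knockout over wild type) was -0.40 for the members and 0.01 for all genes tested. All knockout libraries lay below all wild type libraries in 19 members and above them in 8, and the groups overlapped in 5. Over all genes tested these shares were 27.6% below and 28.7% above, or 56.4% in either direction. With libraries scaled by their totals alone, which moves the median of all genes by 0.20 log2 units, 15 members were called lower and 8 higher and their median became -0.21.

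**Figure D1:**
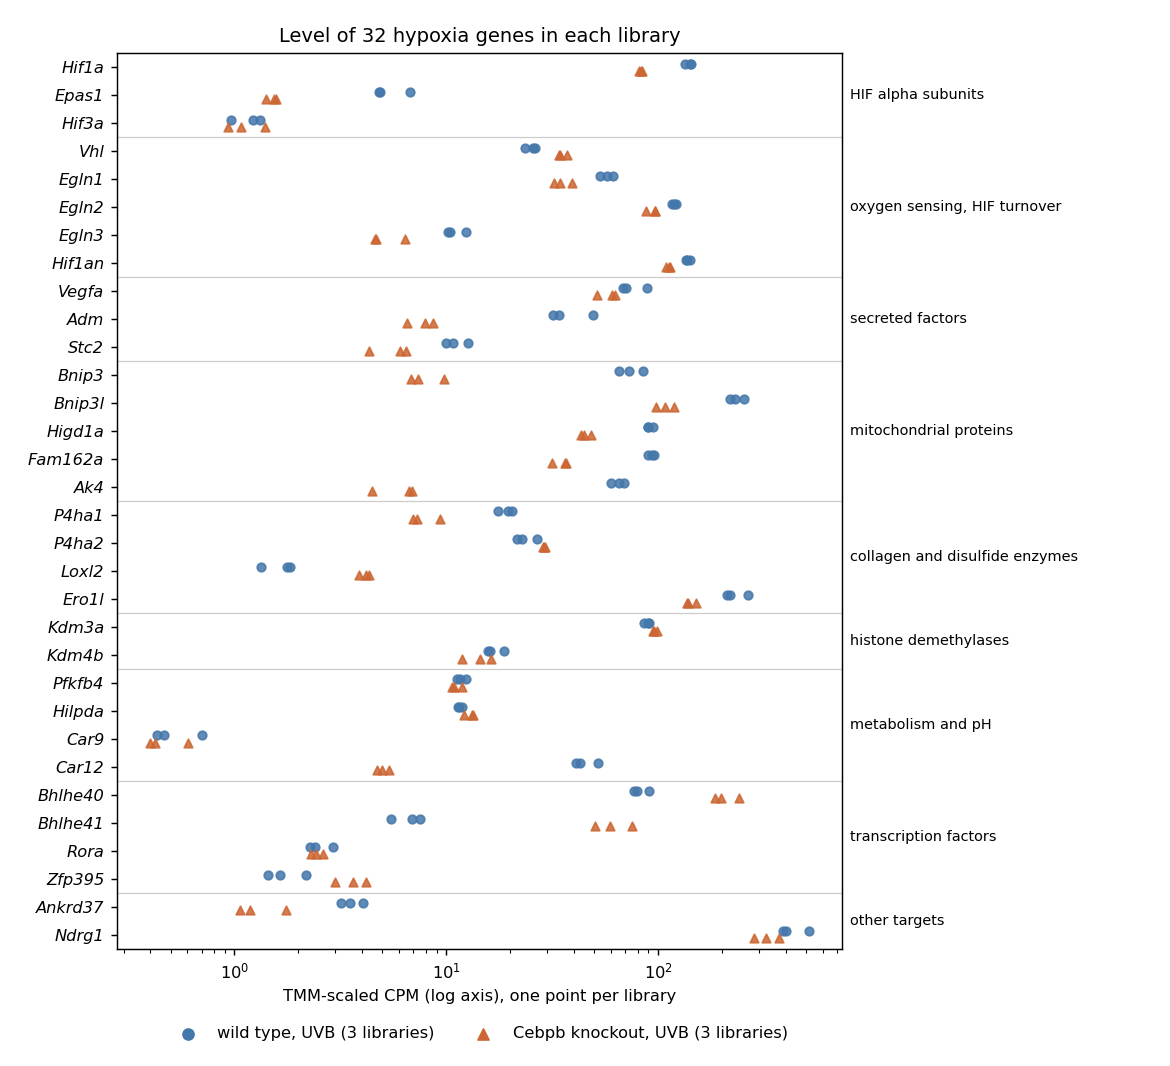
Level of the 32 genes in each library, as CPM after scaling by trimmed mean of M values (TMM), on a log axis. Circles are the 3 wild type libraries and triangles the 3 knockout libraries, both after UVB, with genes grouped by role. Bnip3, Ak4, Car12 and Adm sit far lower in every knockout library, Bhlhe40 and Bhlhe41 higher, and Pfkfb4, Rora, Hif3a, Car9 and Kdm4b overlap.

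Sequence before the start site is shown for the 4 genes with the smallest p among those that changed by at least 1 log2 unit: Car12, Ak4, Fam162a and Bnip3. They are RefSeq promoter sequences on GRCm38.p6, an older build than the GRCm39 named in the submitters' processing notes, and run 5′ to 3′ on the strand of the gene. From the 250 bases before each start site, the longest stretch free of exons annotated in GENCODE M21 is given. Capitals mark matches, on either strand, to the HIF core motifs ACGTG and GCGTG (read as CACGT and CACGC on the other strand) and to the C/EBP motif TTGCNNAA. The palindrome CACGTG holds ACGTG on both strands and is also the E-box that BHLHE40 and BHLHE41 bind.
Car12 (chr9:66713436-66713685, plus strand): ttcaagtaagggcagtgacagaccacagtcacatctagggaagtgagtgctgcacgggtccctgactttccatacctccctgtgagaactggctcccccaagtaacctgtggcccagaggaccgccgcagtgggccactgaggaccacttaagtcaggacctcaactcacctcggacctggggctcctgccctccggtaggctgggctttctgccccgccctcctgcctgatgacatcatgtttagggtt
Ak4 (chr4:101419039-101419276, plus strand, the first of 4 start sites listed): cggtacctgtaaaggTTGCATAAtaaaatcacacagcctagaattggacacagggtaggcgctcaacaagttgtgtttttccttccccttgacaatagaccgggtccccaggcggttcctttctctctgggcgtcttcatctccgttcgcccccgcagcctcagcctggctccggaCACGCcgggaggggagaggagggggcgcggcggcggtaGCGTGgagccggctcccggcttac
Fam162a (chr16:36071595-36071684, minus strand): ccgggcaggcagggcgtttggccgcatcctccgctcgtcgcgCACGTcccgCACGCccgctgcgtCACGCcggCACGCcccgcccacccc
Bnip3 (chr7:138909520-138909756, minus strand): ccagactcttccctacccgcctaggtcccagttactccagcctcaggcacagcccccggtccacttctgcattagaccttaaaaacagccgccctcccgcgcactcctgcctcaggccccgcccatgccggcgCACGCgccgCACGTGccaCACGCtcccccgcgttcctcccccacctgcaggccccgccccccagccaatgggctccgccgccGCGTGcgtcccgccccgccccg

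The Bnip3 stretch held 5 HIF core matches, 2 of them the same CACGTG, the Fam162a stretch held 4, the Ak4 stretch 2 together with 1 C/EBP match, and the Car12 stretch 0. Knockout levels were 11.1% of wild type for Car12, 10.7% for Bnip3, 9.29% for Ak4 and 37.6% for Fam162a. The promoter table held 25 of the members. ACGTG or GCGTG lay in the 250 bases before the first listed start site in 20 of them, against 38.6% of 27025 genes. The members' windows were richer in G and C, with a median of 62.0% against 52.0%, and both motifs contain CG. Among members with a promoter, the share was 13 of 16 called lower, 2 of 3 called higher and 5 of 6 not called. Hilpda (not called) and Vegfa (called lower) had no match there but held matches before another listed start site. TTGCNNAA was found before 1 member (4.0%) and before 9.55% of all genes. A match to such short motifs is a description of the letters and not of binding, and no factor was measured at these sites.

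**Figure D2:**
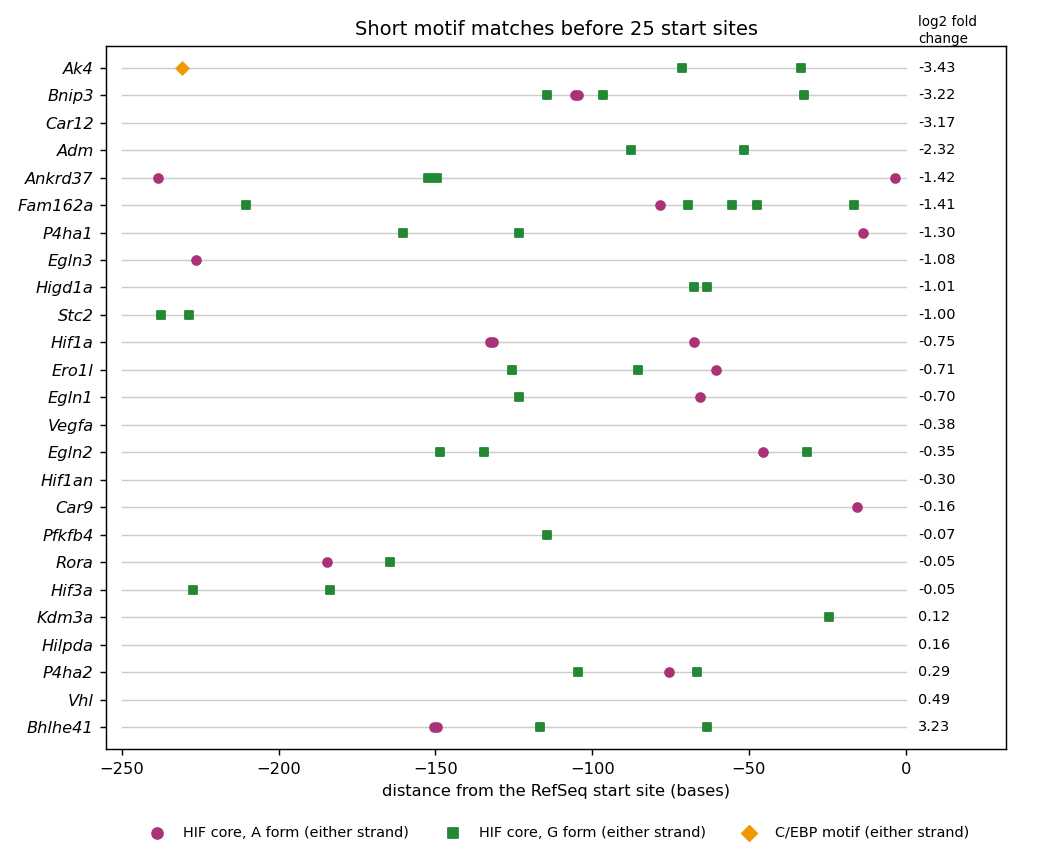
Positions of matches to the HIF core motifs (circles for the form with A, squares for the form with G) and to the C/EBP motif (diamond), in bases from the RefSeq start site, for the 25 members with a promoter sequence. Genes are ordered by log2 fold change, printed at the right, and matches occur among genes at both ends and in the middle.

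Of the 3 HIF alpha subunit genes, Hif1a and Epas1 were lower in knockout cells. Hif1a (ENSMUSG00000021109), the broadly expressed subunit, stood at 134, 144 and 141 CPM in the wild type libraries and at 83.7, 82.8 and 81.7 CPM in the knockout libraries. The groups were far apart beside their spread, and Hif1a fell by 0.75 ± 0.06 log2 units (SE, edgeR adjusted p = 2.09e-08), to 59.3% of wild type. Epas1 (ENSMUSG00000024140), which encodes HIF-2 alpha, had 6.77, 4.79 and 4.86 CPM in wild type and 1.57, 1.41 and 1.54 CPM in knockout, with wild type library 1 the highest. It fell by 1.86 ± 0.17 log2 units (edgeR adjusted p = 1.98e-07). Hif3a, whose product includes inhibitory forms, was at 1.23, 1.32 and 0.963 CPM and at 1.39, 1.08 and 0.931 CPM. Those groups overlapped, and Hif3a was not called (log2 fold change -0.05, 95% interval -0.55 to 0.45, edgeR adjusted p = 0.89), an interval that leaves room for 68.5% to 137% of wild type. Per kilobase of exon, wild type levels were 23.7 CPM for Hif1a, 0.979 for Epas1 and 0.174 for Hif3a, and the order was the same in knockout (14.0, 0.269 and 0.169).

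Of the 5 genes that restrain HIF, 4 were called lower and 1 higher, against 23.7% and 24.8% of all genes tested. Egln1, the main prolyl hydroxylase, stood at 57.4, 61.0 and 53.4 CPM in wild type and 39.2, 34.3 and 32.2 CPM in knockout libraries, a fall of 0.70 ± 0.08 log2 units (edgeR adjusted p = 2.91e-06). Egln3, a prolyl hydroxylase that is itself a HIF target, was at 12.5, 10.4 and 10.2 CPM and at 4.66, 6.40 and 4.63 CPM. It fell by 1.08 ± 0.14 log2 units (edgeR adjusted p = 1.07e-05), with knockout library 5 above the other two. Egln2 moved less, from 116, 122 and 119 CPM to 96.4, 97.0 and 87.5 CPM (log2 fold change -0.35 ± 0.06). Hif1an, the asparaginyl hydroxylase, went from 136, 136 and 141 CPM to 113, 114 and 108 CPM (log2 fold change -0.30 ± 0.06). The groups did not overlap for either gene, as for 56.4% of all genes tested. With library totals neither was called (Egln2 -0.15, edgeR adjusted p = 0.0729, and Hif1an -0.10, edgeR adjusted p = 0.162). Vhl, the substrate receptor of the ligase, was the gene of this group that rose, from 25.8, 26.3 and 23.6 CPM to 37.4, 34.0 and 34.5 CPM (0.49 ± 0.08 log2 units, edgeR adjusted p = 8.32e-05).

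Every one of the 5 mitochondrial genes in the list was called lower by at least 1 log2 unit, against 5.94% of all genes tested. Ak4, an adenylate kinase of the mitochondrial matrix, was at 65.2, 69.1 and 60.1 CPM in wild type and 4.45, 6.92 and 6.69 CPM in knockout. This was a 10.8-fold fall, the lowest fitted value of the 32 (log2 fold change -3.43 ± 0.14, edgeR adjusted p = 1.45e-10), and only 0.657% of all genes tested had a lower log2 fold change. Bnip3, a mitophagy receptor of the BCL2 family, stood at 84.5, 73.0 and 65.7 CPM and at 6.84, 7.32 and 9.77 CPM, which was 9.34-fold lower. Its relative Bnip3l (NIX), also a mitophagy receptor, was at 254, 231 and 219 CPM and at 98.3, 107 and 119 CPM, and fell by 1.12 ± 0.07 log2 units. Both receptors were lower in every knockout library than in any wild type library. Fam162a, a mitochondrial protein linked to cell death under hypoxia, went from 93.3, 89.4 and 95.4 CPM to 31.6, 36.6 and 36.3 CPM (log2 fold change -1.41 ± 0.07). Its annotated exons share 168 bp with the opposite-strand gene Wdr5b, which held 3.33% as many counts. Higd1a, which stabilises respiratory complexes, went from 94.7, 89.7 and 89.8 CPM to 43.1, 44.8 and 48.0 CPM (log2 fold change -1.01 ± 0.07). With library totals Higd1a (-0.814) and Bnip3l (-0.920) stayed called but fell by less than 1 log2 unit. Higd1a also did so with a mean of 1 CPM (-0.995), without wild type replicate 1 (-0.987) and without knockout replicate 4 (-0.978). Reads of Bnip3l could be shared with its copy Bnip3l-ps, which held 772 counts in all libraries.

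The 3 members that encode secreted factors were all called lower, to unequal degrees, against 23.7% of all genes tested. Secreted targets outside the members went both ways, with Pdgfb, Igfbp3 and Angptl4 called higher and Trf lower. Adm, which encodes the vasodilator peptide adrenomedullin, was at 49.2, 32 and 34.1 CPM in wild type and at 6.50, 7.96 and 8.67 CPM in knockout. It fell 4.99-fold (log2 fold change -2.32 ± 0.16, edgeR adjusted p = 1.5e-07), with wild type library 1 the highest. Stc2, a secreted glycoprotein gene, was at 12.7, 10.8 and 9.97 CPM and at 4.31, 6.46 and 6.04 CPM, 1.99-fold lower (log2 fold change just short of 1 unit in size). Vegfa, the main angiogenic factor of the epidermis, had a smaller log2 fold change than either, from 88.5, 68.6 and 70.7 CPM to 51.3, 62.3 and 60.9 CPM. It was called lower (log2 fold change -0.38 ± 0.10, edgeR adjusted p = 0.00374), and with library totals it was not (-0.19, edgeR adjusted p = 0.111).

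Enzymes that act on collagen and disulfides in the secretory pathway split. P4ha1, a catalytic subunit of collagen prolyl 4-hydroxylase, was at 19.6, 20.5 and 17.6 CPM in wild type and 7.26, 6.97 and 9.31 CPM in knockout (log2 fold change -1.30 ± 0.12, edgeR adjusted p = 1.93e-07). Its relative P4ha2 was at 22.7, 26.9 and 21.6 CPM and at 28.8, 28.8 and 29.3 CPM, and rose by 0.29 ± 0.09 log2 units (edgeR adjusted p = 0.0148). The call of P4ha2 was lost without wild type replicate 3 (0.22, edgeR adjusted p = 0.0965). Loxl2, a lysyl oxidase that cross-links collagen, rose 2.51-fold from a low level of 1.82, 1.77 and 1.33 CPM to 4.32, 4.19 and 3.89 CPM (log2 fold change 1.33 ± 0.17). Ero1l (also named Ero1a), an oxidase that forms disulfides, fell from 233 ± 29.4 to 142 ± 7.91 CPM (log2 fold change -0.71 ± 0.08).

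Among the 4 genes of metabolism and pH, Car12 alone was called, against 48.6% of all genes tested called in either direction. Car12, a carbonic anhydrase of the cell surface, was at 51.9, 42.8 and 41.1 CPM in wild type and at 4.69, 5.38 and 4.99 CPM in knockout. It was 9.02-fold lower (log2 fold change -3.17 ± 0.11) and had the smallest adjusted p of the members (1.48e-12 by edgeR). Car9, a related enzyme that is a classic HIF-1 marker, was scarce, with 48, 54 and 70 counts in wild type and 38, 42 and 52 counts in knockout libraries, or 0.532 ± 0.148 and 0.476 ± 0.112 CPM (SD, n = 3 each). It was not called (edgeR adjusted p = 0.728), its interval ran from 54.4% to 147% of wild type, and 214 bp of its exons lie opposite Gm12454, which held 608 counts against 304 for Car9. Pfkfb4, a bifunctional regulator of glycolytic flux, was at 11.7 ± 0.566 and 11.2 ± 0.624 CPM, with an interval of 81.8% to 110% of wild type. Hilpda, a lipid droplet protein gene, was at 11.6 ± 0.222 and 12.9 ± 0.646 CPM, and 96.9% to 129% of wild type lay in its interval. All knockout values of Hilpda were above all wild type values, and it was called higher with library totals (0.36, edgeR adjusted p = 0.00636).

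Of the 4 transcription factor genes among the targets, 3 rose by at least 1 log2 unit, against 8.56% of all genes. The remaining 1 was not called. The HIF alpha subunit genes, which also encode transcription factors, are given above, with 2 called lower and 1 not called. Bhlhe40 (DEC1), a repressor that HIF induces and that also belongs to the circadian clock, stood at 91.1, 79.9 and 77.4 CPM in wild type and at 198, 186 and 242 CPM in knockout (log2 fold change 1.33 ± 0.09, edgeR adjusted p = 1.33e-08). Bhlhe41 (DEC2), its close relative, rose 9.36-fold, from 5.48, 6.91 and 7.48 CPM to 75.6, 59.6 and 50.5 CPM (log2 fold change 3.23 ± 0.16, edgeR adjusted p = 2.25e-08). A higher log2 fold change was found in 0.572% of genes tested. Zfp395, a zinc finger factor induced by hypoxia, was at 1.44, 2.17 and 1.63 CPM and at 4.16, 3.00 and 3.64 CPM (log2 fold change 1.04 ± 0.19, edgeR adjusted p = 2.73e-04). Rora, a nuclear receptor gene of the clock, was at 2.53 ± 0.344 and 2.44 ± 0.158 CPM and was not called (95% interval of the log2 fold change -0.41 to 0.31).

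The histone demethylase genes Kdm3a and Kdm4b, whose products need oxygen and are HIF targets, were not called. Kdm3a was at 90.6, 89.8 and 86.0 CPM in wild type and 94.8, 95.9 and 99.0 CPM in knockout, a log2 fold change of 0.12 with an upper limit of 0.24. Its groups did not overlap, and it was called higher with library totals (0.32, edgeR adjusted p = 3.33e-04) and when only genes averaging 1 CPM or more were tested (0.14, edgeR adjusted p = 0.0494). Kdm4b, at 16.9 ± 1.69 and 14.2 ± 2.21 CPM, had a log2 fold change of -0.25 (edgeR adjusted p = 0.0952) and was called lower without knockout replicate 5 (-0.36, edgeR adjusted p = 0.033). Of the remaining targets, Ankrd37, an ankyrin repeat gene and a sensitive hypoxia marker, went from 4.03, 3.20 and 3.52 CPM to 1.06, 1.75 and 1.19 CPM (log2 fold change -1.42 ± 0.20). Its exons share 57 bp with the opposite-strand gene Ufsp2, which held 9862 counts against 1548 for Ankrd37 and was at 16.0 ± 1.23 and 16.5 ± 0.322 CPM. Ndrg1, a stress-response gene, was at 437 ± 71.3 and 326 ± 44 CPM and fell by 0.42 ± 0.12 log2 units (edgeR adjusted p = 0.0169). It was not called with library totals (-0.23, edgeR adjusted p = 0.102).

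**Figure D3:**
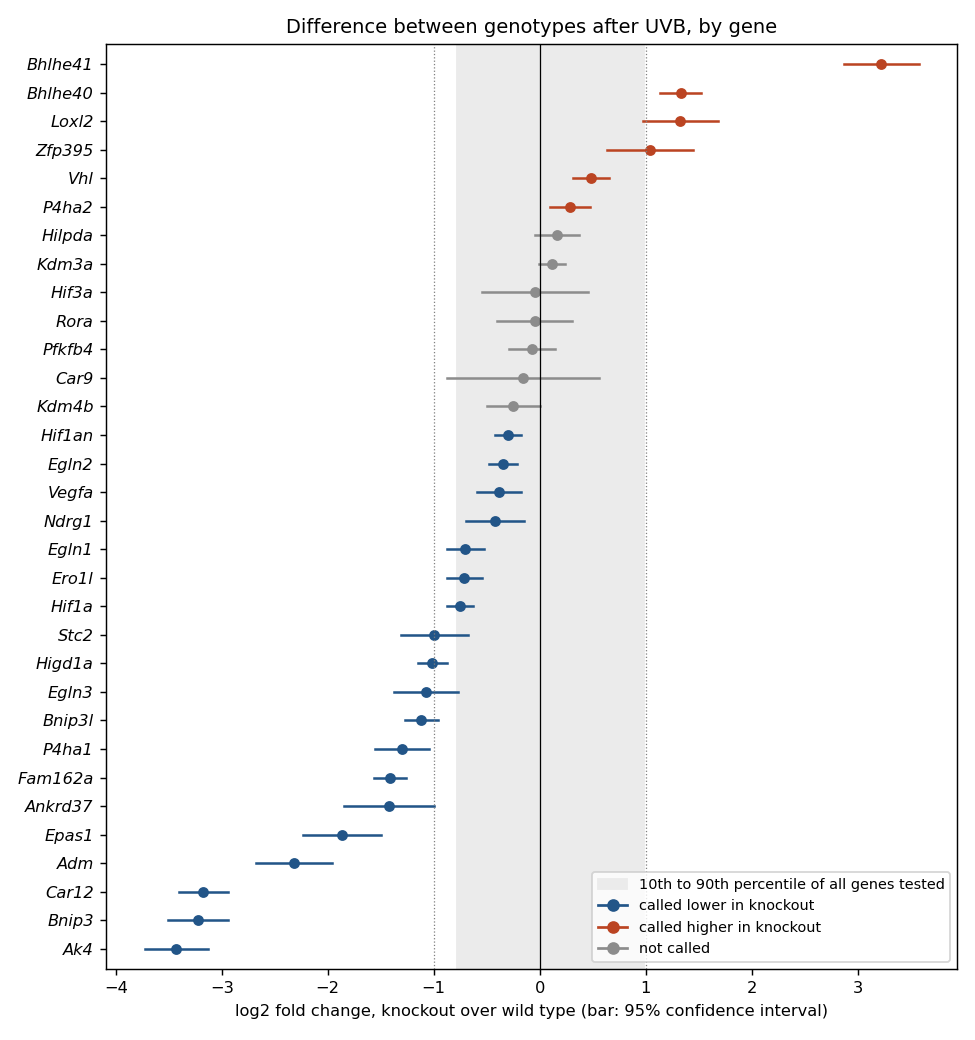
Log2 fold change of each gene, knockout over wild type, with its 95% confidence interval from edgeR, ordered by size. Blue genes were called lower, red higher and grey not called, dotted lines mark 1 log2 unit, and the grey band runs from the 10th to the 90th percentile of all genes tested, -0.78 to 0.99. Of the 24 targets, 9 fell and 4 rose by at least 1 log2 unit, against 5.94% and 8.56% of all genes tested.

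By this test the 24 HIF targets separated into 9 that fell by at least 1 log2 unit (Ak4, Bnip3, Car12, Adm, Ankrd37, Fam162a, P4ha1, Bnip3l and Higd1a), 4 that fell less (Stc2, Ero1l, Ndrg1 and Vegfa), 6 that were not called (Kdm3a, Kdm4b, Pfkfb4, Hilpda, Car9 and Rora) and 5 that rose (Bhlhe41, Bhlhe40, Loxl2, Zfp395 and P4ha2). Of all genes tested, 23.7% were called lower and 24.8% higher, and 5.94% and 8.56% by at least 1 log2 unit. The share of targets called higher at any size was not above that of all genes. This grouping was read from the same test and is a description. Stc2, at 50.2% of wild type, and Higd1a, at 49.6%, lie on either side of the 1 log2 line. Among the targets not called, the interval was narrow for Kdm3a, at 99.8% to 118% of wild type, and wide for Car9.

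Whether relatives moved apart was tested on the ratio of their counts within each library, in which the library scaling cancels. The ratio of Bnip3 to Bnip3l was 0.333, 0.316 and 0.300 in wild type and 0.0696, 0.0682 and 0.0823 in knockout libraries, a log2 difference of -2.11 ± 0.10 (SE). For P4ha1 to P4ha2 it was 0.865, 0.762 and 0.818 and then 0.252, 0.243 and 0.318 (log2 difference -1.60 ± 0.13). The ratio of Bhlhe40 to Bhlhe41 was 16.6, 11.6 and 10.3 in wild type libraries and 2.61, 3.11 and 4.78 in knockout libraries (log2 difference -1.89 ± 0.33). The ratio of Hif1a to Epas1 had a geometric mean of 25.8 in wild type and 54.8 in knockout (log2 difference 1.09 ± 0.20). The geometric mean ratio of Car9 to Car12 went from 0.0116 to 0.0943, and that of Egln1 to Egln2 from 0.481 to 0.375. In these 6 pairs the groups did not overlap, with an exact two-sided permutation p of 0.10 each, the smallest that 3 against 3 libraries allow, or 0.117 adjusted over the 7 pairs by the Benjamini-Hochberg method. None can therefore pass 0.05. Among single genes tested, 56.4% had groups that did not overlap, and the share for other pairs of genes was not computed. Egln1 to Egln3 overlapped (geometric mean ratios 5.20 and 6.78, exact permutation p = 0.20).

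**Figure D4:**
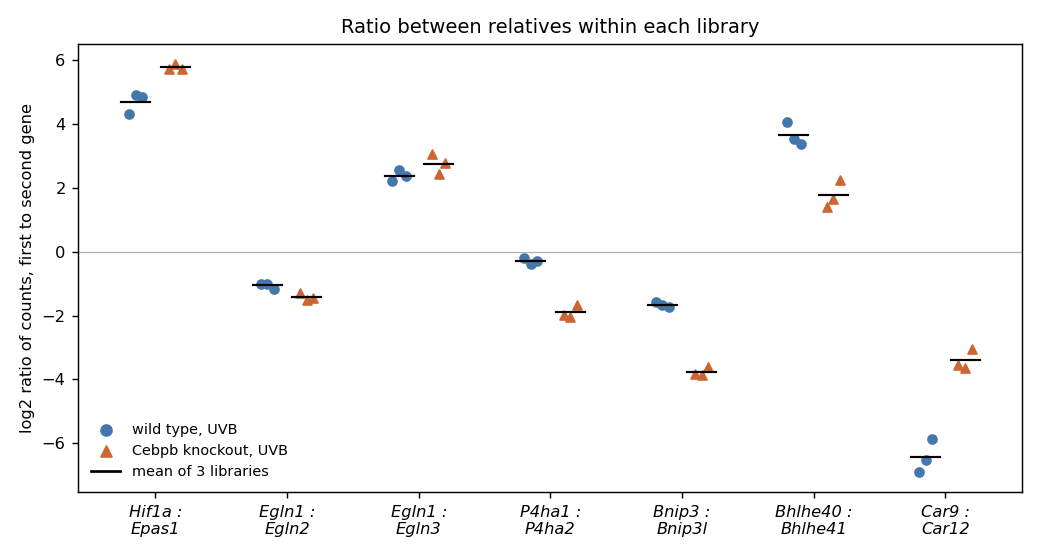
Log2 ratio of the counts of 7 pairs of related genes within each library, the first gene over the second. Circles are wild type and triangles knockout libraries, with horizontal lines at the mean of 3, and the groups are apart in 6 pairs and overlap for Egln1 to Egln3.

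Other genes of the pathway were taken from 2 lists. Of 14 genes for HIF partners, coactivators and the degradation machinery, 7 were called lower, 0 higher and 7 not, against 23.7% lower and 24.8% higher over all genes tested, and the median log2 fold change was -0.22. The scaffold gene Rack1, which promotes oxygen-independent turnover of HIF-1 alpha, fell by 0.32, Senp1, a SUMO protease, by 0.31, and Ep300, a coactivator of HIF, by 0.26. Arnt2, a beta subunit related to Arnt, fell by 1.5 ± 0.20 log2 units (SE) from a low level of 2.32 ± 0.299 CPM. With library totals 2 of the 14 were called lower and 2 higher, and the calls of Senp1 (-0.11, edgeR adjusted p = 0.251) and Ep300 (-0.06, edgeR adjusted p = 0.519) were lost. Of 38 further HIF targets that are no members, 10 were called higher, 12 lower and 16 were not called, beside the same 24.8% higher and 23.7% lower of all genes, and their median was 0.01, as for all genes tested. Pdgfb, a growth factor gene, rose from 14.6 ± 1.52 to 129.5 ± 1.86 CPM (log2 fold change 3.15 ± 0.08), Igfbp3, which binds insulin-like growth factors, rose by 1.75 ± 0.07, Tmem45a, a transmembrane protein gene, fell by 2.42 ± 0.12, and Angptl4, an inhibitor of lipoprotein lipase, rose by 2.45 ± 0.13.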

How the data were processed

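Keratinocyte total RNA was read as 150 bp pairs, per the labels' protocols. The authors deposited raw counts per gene in 6 columns, 1 a library, without normalisation. FastQC, STAR, HTSeq and DESeq2 with mm39 and GRCm39 are named in the submitters' processing notes, without a version, and those notes state neither strandedness nor which annotation was counted. Without a strand setting, overlapping genes on opposite strands cannot be told apart. The members, lists and rule for named genes were chosen with earlier results of these data known. All members are named, with every library's value for genes called with at least 1 log2 unit and for the regulators, and the 4 called genes with the smallest p of each further list.

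Symbols came from GENCODE M21 by Ensembl identifier (52083 of 55416 matched, all members included), exon lengths from the same annotation. The test was edgeR's quasi-likelihood test (edgeR 4.0.16, R 4.3.3) with genotype as the only factor, robust dispersion, TMM scaling and filterByExpr at 10 counts. Intervals are 95%, from the fold change, its F statistic and the test's total degrees of freedom, which are the residual plus the prior ones. On simulated counts with 200 of 17437 genes changed by 1 log2 unit, 85.5% were recovered and 6.04% of calls were false. In the simulation as many genes rose as fell, and all had the same dispersion. In the data 48.6% of genes were called, so these rates may not hold for them. Ratios used counts plus 0.5. Alternatives were DESeq2 size factors, library totals, no filter, a mean of 1 CPM, DESeq2 (1.42.0), limma voom (limma 3.58.1), a pseudocount of 5 for ratios, and leaving out each library. Of the promoter table, 7 members had no entry: Epas1, Loxl2, Ndrg1, Kdm4b, Bnip3l, Bhlhe40 and Zfp395.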

Additional observations from a re-analysis of the deposited data

How the results depend on the processing

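Under 12 alternatives, 366 of the 383 values of single members kept their direction and their side of the threshold, 5 lost the call, 4 gained it and 8 changed sign, all 8 in members not called before or after. With library totals the log2 fold change turned positive for Hif3a (0.15), Pfkfb4 (0.13), Rora (0.15) and Car9 (0.0369). Leaving out single libraries gave -0.219 (without knockout replicate 4) to 0.075 (without knockout replicate 6) for Hif3a, also positive without wild type replicate 2 (0.0451), -0.128 to 0.0666 (without wild type replicate 2) for Rora, and -0.366 to 0.0782 (without wild type replicate 3) for Car9. The cause was not tested. With library totals 2452 of all genes were called lower, the members' median log2 fold change became -0.21, and the list of partners and turnover genes had 2 called lower and 2 higher. Egln2, Hif1an, Vegfa and Ndrg1 lost their calls there, Kdm3a and Hilpda gained one, and 8 members were called lower by at least 1 log2 unit. That list had 1 gene called higher when only genes averaging 1 CPM or more were tested, and 0 to 1 when single libraries were left out, with 1 without wild type replicate 1. Leaving out single libraries gave 19 to 20 members called lower, 9 to 12 of them by at least 1 log2 unit. It gave 5 to 6 called higher, 3 to 4 of them by at least 1 log2 unit. The log2 ratio differences of the 7 pairs kept their signs in every alternative run. No paired analysis was possible because the labels give no pairing of wild type with knockout libraries. Car9, with 38 to 70 counts a library, is the member whose precision depth limits most.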

Other observations

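Wild type library 1 held the highest CPM of the 3 wild type libraries for 17 of the 32 members (53.1%, against 36% of all genes tested), and wild type library 3 the lowest for 19 (59.4%, against 30.3%). Adm, Epas1, Vegfa and Ndrg1 were among those highest in library 1, with Adm at 49.2 CPM beside 32 and 34.1 CPM. In the knockout group the highest value lay in library 6 for 13 members (40.6%, against 33.7% of all genes). The labels give no difference between libraries of 1 genotype, and these shares were not tested.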
